A study of Rattus norvegicus with 32 samples.

Results

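The comparison of Ang II with Control after 3 h was made on 8 arrays out of 32 in the series: the 4 Control and the 4 Ang II arrays of the 3 h interval, chosen by their labels. All samples were C6 cells, a rat glioma line grown to confluence in medium with serum. Control cells received neither Ang II nor an antagonist, and Ang II cells received 100 nM Ang II alone. The other arms at 3 h, used below only for values side by side, received the same Ang II after 30 min with 10 µM of Losartan (Ang II+Los, the AT1 receptor blocked) or of PD123319 (Ang II+PD123319, the AT2 receptor blocked). The labels do not say whether replicates were separate cultures, so the p-values measure the spread between these samples, which may be technical. Each replicate number was 1 slide that carried all 4 arms, with Control always in position 1 and Ang II always in position 2. An effect of position and an effect of Ang II cannot be told apart.

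Ang II is the effector peptide of the renin-angiotensin system. It signals mainly through the AT1 receptor, which couples to heterotrimeric G proteins, phospholipase C and MAP kinases and is known for driving growth, contraction and matrix synthesis. The AT2 receptor often opposes it. In astrocytes and gliomas the system has been studied for its effects on proliferation and on vascular growth factors.

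Between 58.1% and 64.7% of spots were well above background on 7 of the 8 arrays, and 56.9% were on the Control array of slide 4. No spot was saturated. Before normalization the 75th percentile of log2 signal was 9.02, 9.25, 8.60 and 8.65 on the Control arrays of slides 1 to 4 and 9.46, 10.23, 8.78 and 9.04 on the Ang II arrays, so the Ang II array was the brighter on every slide, most of all on slide 2. The part of this brightness in the results was not tested. Of 20 glial and stem cell markers, 10 exceeded background clearly on each of the 8 arrays, whereas 7 did so on none. The 10 were S100b, Glul, Vim, Nes, Sox2, Sox9, Olig1, Cspg4, Pdgfra and Cd44. The 7 were Gfap, Slc1a2, Slc1a3, Olig2, Prom1, Msi1 and Fabp7. The angiotensin receptor genes Agtr1a, Agtr1b and Agtr2, and the Mas receptor gene Mas1, were not well above background on any of the 8 arrays. No level or change of a receptor could therefore be measured on these arrays. By qPCR the paper reports that Ang II slightly raised AT1 and slightly lowered AT2 at the shorter interval. Angiotensinogen (Agt) was above background on 2 of 4 arrays in each group and was not tested.

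In all, 13630 genes were tested with limma, with the slide as a block. A gene was counted as past the limits at an unadjusted p under 0.05 with a fold change above 1.2 or below 0.8. By this rule 1496 genes passed, 11% of those tested: 681 were higher in Ang II (5%) and 815 lower (5.98%). No gene had an adjusted p under 0.05, and the lowest limma adjusted p was 0.322, against 1732 genes at an unadjusted p under 0.05. The differences were unequal between slides. Slide 2 held the largest of the 4 differences for 932 of the 1477 passing genes measured on all 8 arrays, slide 4 for 401, slide 1 for 76 and slide 3 for 68. The SD of the differences over all genes was 0.28 on slide 1, 0.69 on slide 2, 0.27 on slide 3 and 0.44 on slide 4 (log2). Without slide 2 the count was 751, without slide 4 it was 766, and without slide 1 or slide 3 it was 1772 or 1657. Without both slides 2 and 4 it was 327, which is 2.40% of the genes tested.

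The split between higher and lower genes moved with the scaling of the arrays. Lower genes were 54.5% of those past the limits here, 77.1% with each array scaled to its 75th percentile, 65.4% after quantile normalization and 41.6% after normexp background correction. The median log2 difference of all genes was 0.00 here and -0.05 after scaling to the 75th percentile.

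The size of what slide 2 alone could set is shown by the genes in which 1 slide lay farthest from the others, and in all 6 of those named by the rule that slide was slide 2. Tyw1, which modifies transfer RNA, had a log2 signal of 9.56, 3.67, 9.97 and 9.78 on the Control arrays of slides 1 to 4 and of 9.46, 9.30, 9.59 and 9.28 on the Ang II arrays. Its difference of 1.16 ± 0.89 (SE) came from the dim Control spot of slide 2, and without that slide it was -0.33. Pcdh20, a protocadherin, and Gucy1a3, a subunit of soluble guanylate cyclase, showed the opposite, an Ang II array of slide 2 far above the other 7 (11.24 against 6.30 to 7.10 for Pcdh20, and 10.43 against 5.96 to 6.48 for Gucy1a3). Lhfp, RGD1564195 (now Prrt2) and Srcap differed by 4.68, 3.94 and 3.99 on slide 2. None of these 6 genes was past the limits.

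Wide differences lay in the integrated stress response, in which the transcription factor ATF4 is translated when the initiation factor eIF2 is phosphorylated and then switches on CHOP, TRIB3, GADD34 and amino acid genes. Of 15 tested genes on the ATF4-CHOP list, 8 were lower past the limits (53.3%, beside 5.98% of all genes) and 0 higher, with a median log2 difference of -0.49. Ddit3, which encodes CHOP (probe at rn4 chr7:67252505-67252564), had a log2 signal of 10.25, 15.13, 15.03 and 15.02 on the Control arrays and of 10.20, 10.33, 15.05 and 10.08 on the Ang II arrays. Ddit3 was thus low on both arrays of slide 1, high on both arrays of slide 3, and high in Control but low in Ang II on slides 2 and 4.

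Trib3, a pseudokinase that CHOP and ATF4 induce (rn4 chr3:142664936-142664995), read 6.62, 11.58, 11.99 and 11.95 in Control and 6.32, 7.35, 12.002 and 7.45 in Ang II. Herpud1, a component of the degradation machinery of the endoplasmic reticulum, read 9.75, 13.19, 13.24 and 12.90 in Control and 9.88, 9.64, 13.11 and 9.17 in Ang II. The fitted differences, -2.45 ± 0.83 (SE) for Ddit3, -2.26 ± 0.73 for Trib3 and -1.82 ± 0.69 for Herpud1, are therefore averages of slides with almost no difference and slides with differences of -3.55 to -4.95. The same form was seen in Atf4 itself (differences of 0.11, -2.28, -0.03 and -2.11 on slides 1 to 4), in Ppp1r15a, which encodes the eIF2 phosphatase subunit GADD34 (-0.19, -2.85, -0.12 and -2.19), and in the stress-induced chromatin protein gene Nupr1 (0.03, -1.79, -0.13 and -1.32). Across all genes tested, 8 differed by over 2 (log2) on slides 2 and 4 and by under 0.5 on slides 1 and 3, and all 8 were lower: Ddit3, Trib3, Herpud1, Otub2, Ppp1r15a, Atf4, RGD1566319 and 1 probe with no gene name. This set was drawn up after its values were seen and has no test.

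The arms with an antagonist carried the same slide pattern. Ddit3 was 10.17, 10.80, 14.97 and 10.15 in Ang II+Los and 10.42, 10.63, 15.16 and 10.32 in Ang II+PD123319, so on slides 2 and 4 the Control array stood apart from the other 3 arrays and on slide 3 no array did. Each arm is compared here with the same 4 Control arrays, so the arms are not separate evidence. At 6 h, on other slides, Ddit3 was 10.21, 15.03, 10.42 and 14.87 in Control and 9.88, 12.80, 10.26 and 12.95 in Ang II, again with the Control array high on slides 2 and 4 and with little difference on slides 1 and 3. The median over the 15 ATF4-CHOP genes was 0.01, -0.80, -0.03 and -0.70 on slides 1 to 4 at 3 h and -0.02, -0.52, -0.08 and -0.57 at 6 h. Without slide 2, 1 of the 8 genes was past the limits, without slide 4 none, and without both none. Each scan held 1 of slides 2 and 4 and 1 of slides 1 and 3. The mean difference of Ddit3 was -2.43 on scan 1, from slides at -0.05 and -4.80. It was -2.46 on scan 2, from slides at 0.02 and -4.95. These means are alike because of how the slides were split, and they do not test the scan. What set the level of this response on each slide was not tested.

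**Figure D1:**
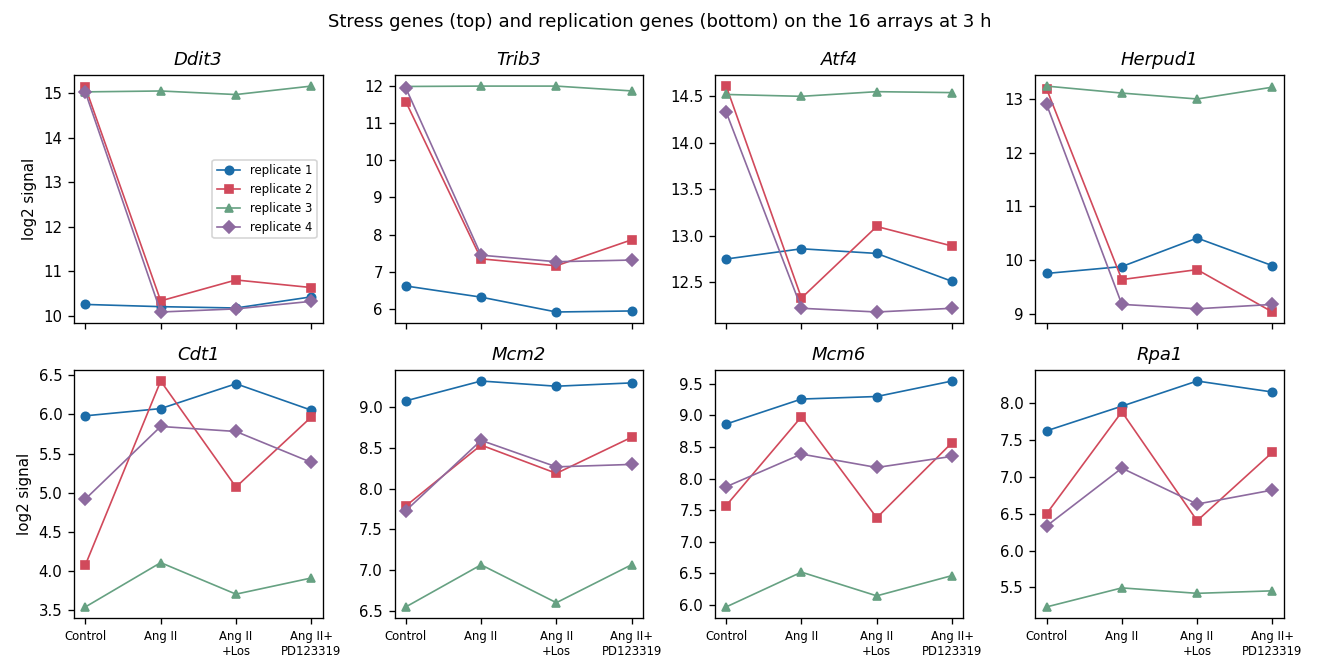
Log2 signal of 4 stress genes (top) and 4 replication genes (bottom) on the 16 arrays at 3 h, with the arms on the horizontal axis and the arrays of 1 slide (replicate) joined by a line. On slides 2 and 4 Ddit3 lay at 15.13 and 15.02 in Control and between 10.08 and 10.80 in the other arms, on slides 1 and 3 it hardly changed, and the replication genes were lowest on slide 3 in every arm.

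Lists next to the ATF4 branch held fewer such genes. On the list of endoplasmic reticulum chaperones and XBP1-ATF6 targets 4 of 25 were lower past the limits (16%, beside 5.98% of all genes), none was higher, and the median was -0.18. Syvn1, the ubiquitin ligase HRD1, was the member past the limits in every fit that left out a slide: its log2 signal was 9.27, 10.98, 11.44 and 10.90 in Control and 9.09, 9.47, 10.90 and 9.89 in Ang II, a difference of -0.81 ± 0.23 (SE). Its Ang II array was lower than Control on all 4 slides, least on slide 1. Without both slides 2 and 4, Syvn1 differed by -0.36 and was not past the limits. Dnajb9, a cochaperone of BiP, differed by -0.94 ± 0.30 and was not past the limits without slide 4. Sdf2l1 differed by -0.36 ± 0.12 and was not past them without slide 2, 3 or 4. On the list of amino acid synthesis, transport and tRNA charging 3 of 32 were lower past the limits. This share of 9.38% lies near the 5.98% of all genes. In all, 25 of the 32 lay below 0 and 7 above it, with a median of -0.13. Asns, the asparagine synthetase gene, was not past the limits and changed little on slides 2 and 4. It read 10.64, 13.24, 12.82 and 13.09 in Control and 10.94, 13.19, 12.94 and 12.99 in Ang II. The cationic amino acid transporter gene Slc7a1 was 7.09, 8.32, 8.83 and 7.96 in Control and 6.94, 6.98, 8.27 and 6.95 in Ang II, lower on every slide (-0.76 ± 0.24). Its 2 probes gave -1.20 and -0.33. The cystine transporter gene Slc7a11 differed by -0.35 ± 0.11, with slides between -0.25 and -0.48, and the cysteinyl-tRNA synthetase gene Cars by -0.63 ± 0.21, with differences on slides 2 and 4 alone.

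The promoters of these genes were read from RefSeq (GRCr8) and searched on both strands, over the 250 bases before the start site, for the composite element that ATF4 binds with C/EBP factors (TGATGNAA). It was found in 4 of the 15 tested ATF4-CHOP genes, all of which had a promoter in the table, and in 3 of the 8 past the limits. Among the 7883 promoters of tested genes it was found in 1.81%. The stretches that hold it are shown here because they are the matches among the list's genes past the limits, with the element in capitals (read on either strand), and that of Slc7a1 is added as a lower gene from outside the list. Herpud1 held the element too.
Trib3 (chr3:161275534-161275603, minus strand): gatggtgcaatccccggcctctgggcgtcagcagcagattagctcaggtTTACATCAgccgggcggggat
Nupr1 (chr1:190645918-190645987, minus strand): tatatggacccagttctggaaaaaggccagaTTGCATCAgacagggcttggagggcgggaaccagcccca
Ppp1r15b (chr13:47129791-47129860, plus strand): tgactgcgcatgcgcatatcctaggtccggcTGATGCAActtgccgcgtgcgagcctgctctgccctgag
Slc7a1 (chr12:11664418-11664487, plus strand): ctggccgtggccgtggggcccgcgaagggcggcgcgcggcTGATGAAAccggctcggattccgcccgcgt
These are matches of letters and not measured binding sites.

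Genes of DNA replication were higher in Ang II. The MCM proteins form the helicase that is loaded on origins by CDC6 and CDT1 and opened with the GINS complex, and most genes of this group are switched on by E2F factors before S phase. Of 45 tested members of the list, 14 were past the limits, all higher (31.1%, beside 5% of all genes), and the median log2 difference was 0.30 beside 0.00 for all genes. The slides were unequal here too, with medians of 0.05, 0.55, 0.14 and 0.44 on slides 1 to 4, and with 42 of 45 members above 0 on slide 4 against 24 on slide 1.

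Mcm6, a helicase subunit (rn4 chr13:41052148-41052207), had a log2 signal of 8.86, 7.57, 5.97 and 7.87 in Control and of 9.26, 8.98, 6.52 and 8.39 in Ang II. It was higher in Ang II on each slide, by 0.40, 1.40, 0.55 and 0.52, whereas its level varied more between slides than between groups, so the groups overlap and the difference shows within slides only. The fitted difference was 0.72 ± 0.20 (SE), a fold of 1.64. Mcm2 read 9.08, 7.79, 6.54 and 7.73 in Control and 9.32, 8.54, 7.06 and 8.59 in Ang II, a difference of 0.59 ± 0.12, but its 2 probes disagreed in size, with 0.95 and 0.24. Rpa1, the large subunit of the protein that coats single-stranded DNA, read 7.62, 6.5, 5.24 and 6.33 in Control and 7.96, 7.88, 5.49 and 7.12 in Ang II (0.69 ± 0.22).

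With these, Cdt1 (0.98), Pola2 of the polymerase alpha-primase complex (0.73) and Gins2 (0.72) made up the 6 replication genes past the limits in the full fit and in each of the 4 fits that left out a slide. Cdt1, Pola2 and Gins2 were not well above background on every array. Mcm5 was higher by 0.38 ± 0.11 on all 4 slides and was not past the limits without slide 4. Cdc6 (0.84), Mcm3 (0.51), Rrm2 of ribonucleotide reductase (0.39), Mcm7 (0.33) and Pole of polymerase epsilon (0.32) were past the limits with all slides. Leaving out slide 2 kept 8 of the 14 and leaving out slide 4 kept 6. Without both, Mcm6 alone of the 45 was past the limits, and the list's median was 0.08.

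**Figure D2:**
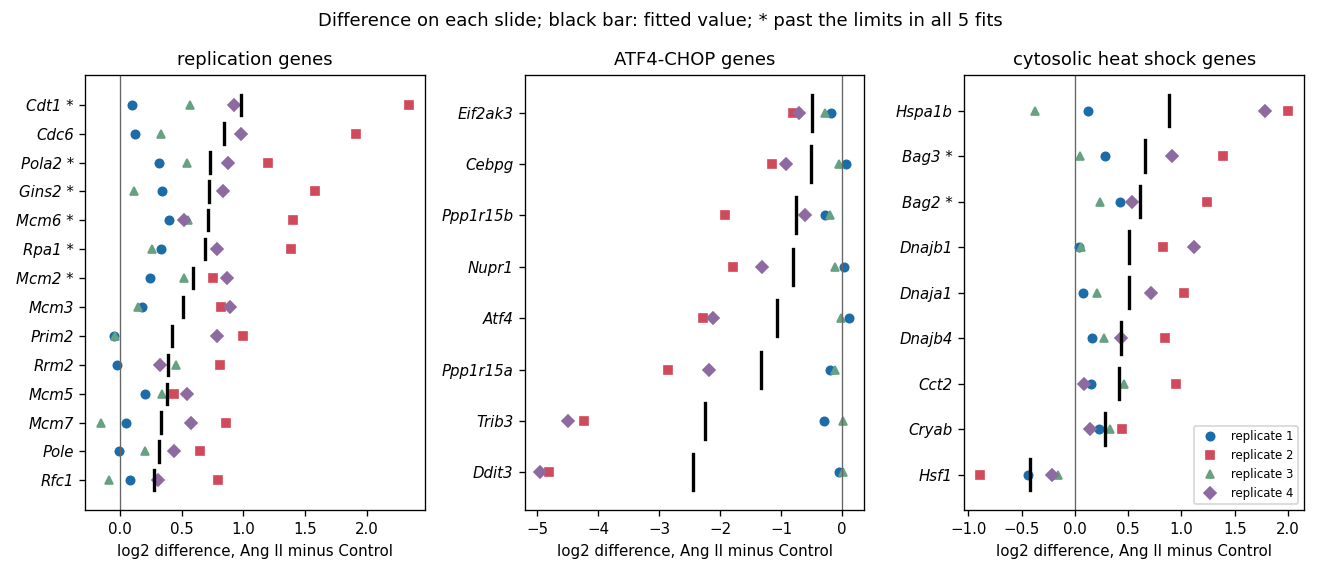
Log2 difference of Ang II minus Control on each slide (coloured points) and in the fit (black bars) for the members past the limits on the replication, ATF4-CHOP and cytosolic heat shock lists, with a star for genes past the limits in all 5 fits. In Ddit3, Trib3, Ppp1r15a and Nupr1 of the ATF4-CHOP genes slides 1 and 3 lie near 0 and slides 2 and 4 far below it. For Mcm2 and Mcm6 all 4 slides lie above 0, but the rule for a star requires the same direction on all 4. Over all 45 tested replication genes the medians on slides 1 to 4 were 0.05, 0.55, 0.14 and 0.44.

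The E2F site was searched as TTTCCCGC, TTTGGCGC, TTTCGCGC or TTTGCCGC, on both strands over the same 250 bases. It was found in 9 of the 37 tested replication genes with a promoter in the table, in 4 of the 12 past the limits, and in 3.56% of the promoters of all tested genes. The 4 are shown because they are the matches among the replication genes past the limits, with the letters that match on either strand in capitals (overlapping matches run together).
Mcm2 (chr4:122918095-122918164, minus strand): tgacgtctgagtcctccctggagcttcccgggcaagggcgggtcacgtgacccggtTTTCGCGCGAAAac
Mcm6 (chr13:42404449-42404518, minus strand): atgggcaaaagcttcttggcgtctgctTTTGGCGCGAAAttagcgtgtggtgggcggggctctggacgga
Mcm5 (chr19:13488743-13488812, plus strand): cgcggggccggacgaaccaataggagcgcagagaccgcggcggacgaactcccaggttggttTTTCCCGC
Mcm7 (chr12:22163192-22163261, minus strand): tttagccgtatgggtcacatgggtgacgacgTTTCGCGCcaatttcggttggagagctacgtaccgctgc
Of the genes past the limits in all 5 fits, described below, it was found in 3 of 55 promoters of higher genes and in 0 of 88 of lower genes.

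The cell cycle lists that follow replication moved the same way by less. On the list of E2F factors, cyclins and G1/S regulators 4 of 19 were higher past the limits (21.1%, beside 5% of all genes) and none lower, and without slide 2 or without slide 4 it was 1 of the 4. Ccne1, cyclin E1, which drives entry into S phase, was 10.59, 9.20, 9.05 and 9.59 in Control and 10.80, 10.50, 9.15 and 10.70 in Ang II (0.68 ± 0.21), with slides 2 and 4 carrying most of the difference. E2f1 differed by 0.30 ± 0.12, and its 2 probes gave 0.39 and 0.21. Among mitotic kinases, kinesins, kinetochore and condensin genes 10 of 42 were higher past the limits (23.8%) and none lower, with a median of 0.21. Without slide 2 it was 1 of the 10 and without slide 4 it was 2, and none was past the limits in all 5 fits.

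Mad2l1 of the spindle checkpoint differed by 0.61 ± 0.22, with 1.62 on slide 2 and 0.03 on slide 1. Aurkb, the kinase of the chromosomal passenger complex, differed by 0.46, 0.60, 0.43 and 0.07 on slides 1 to 4. Ttk and Plk4 differed by 0.41 and 0.38. On the list of tubulins and microtubule proteins 6 of 22 were higher (27.3%, beside 5% of all genes). Without slide 2 it was 2 of the 6 and without slide 4 it was 1. Among the 6 were Tubb6 (0.39 ± 0.11) and the microtubule plus-end gene Clasp1 (0.53 ± 0.19). Without slides 2 and 4, 1 mitotic gene and no tubulin or G1/S gene was past the limits.

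Of 35 cytosolic heat shock genes 8 were higher past the limits (22.9%, beside 5% of all genes) and 1 was lower (2.86%, beside 5.98%), with a median of 0.20. Without slide 2 it was 3 of the 8 and without slide 4 it was 4, and on slide 1 17 of the 35 lay above 0. Bag3, the cochaperone that directs clients of HSP70 to autophagy (rn4 chr1:187804666-187804725), had a log2 signal of 10.94, 10.81, 10.65 and 10.84 in Control and of 11.21, 12.20, 10.70 and 11.75 in Ang II. The Control arrays were close together and slides 2 and 4 carried most of the difference of 0.66 ± 0.18. Bag2, another cochaperone of HSP70, was higher by 0.42, 1.24, 0.23 and 0.54 on slides 1 to 4, and with Bag3 it was past the limits in all 5 fits.

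Hspa1b, the inducible HSP70, gave 0.12, 2.00, -0.38 and 1.78 on slides 1 to 4, so its sign was not shared by all slides. Dnaja1 (0.51 ± 0.15) and the small heat shock protein gene Cryab (0.28 ± 0.10) were higher on all 4 slides. Hsf1, the transcription factor of this response, was lower, at 10.26, 10.35, 10.62 and 10.29 in Control and 9.82, 9.46, 10.46 and 10.08 in Ang II (-0.43 ± 0.13). Without slides 2 and 4 no member was past the limits.

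**Figure D3:**
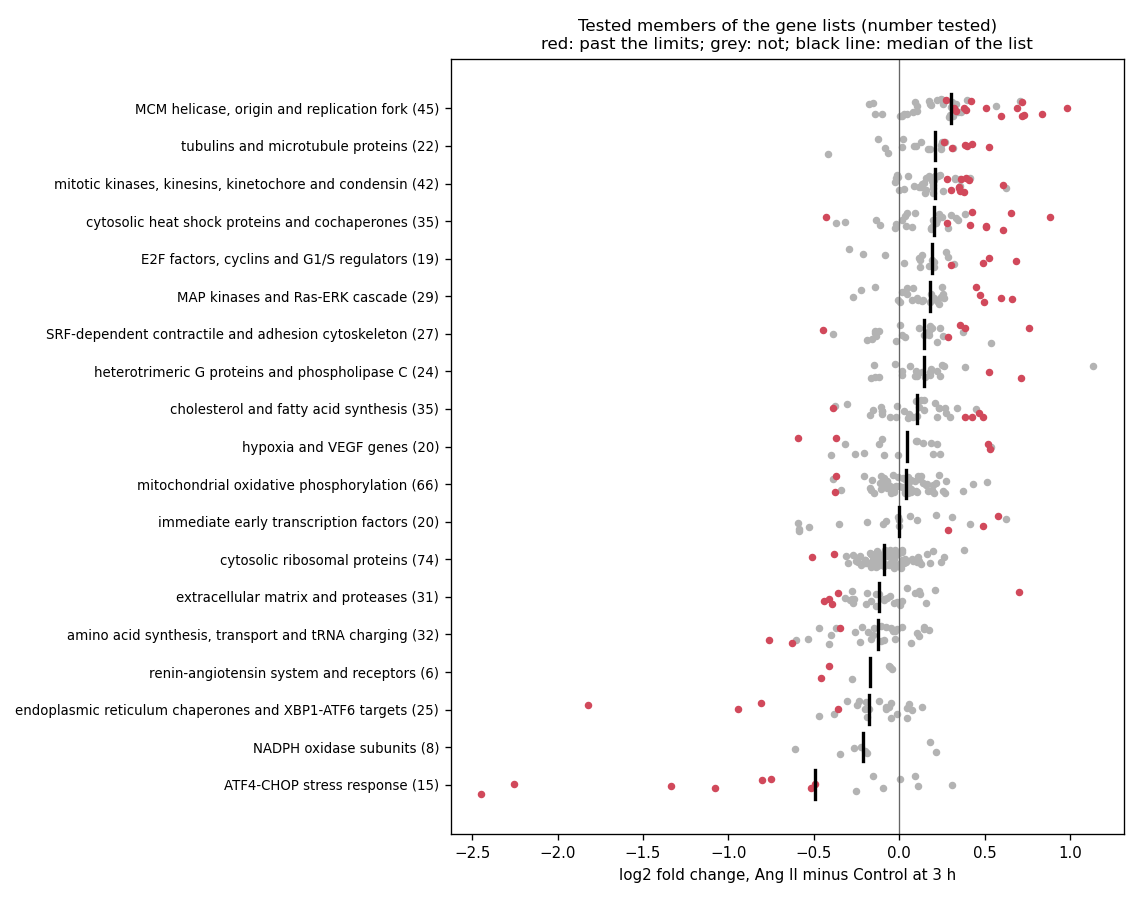
Log2 fold change of Ang II minus Control at 3 h (horizontal axis) for every tested member of 19 gene lists, 1 point a gene, with the number tested in brackets. Points past the limits are red, others grey, and the black line is the list's median. The replication list has the highest median (0.30) and the ATF4-CHOP list the lowest (-0.49), with Ddit3 and Trib3 at its far left.

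Over all genes, 257 were past the limits in the full fit and in each fit without 1 slide, with the same direction on all 4 slides (1.89% of the genes tested): 87 were higher (0.638%) and 170 lower (1.25%). They did not depend on a single slide, but slides 2 and 4 were still the larger: the median difference on slides 1 to 4 was 0.31, 1.05, 0.33 and 0.60 in the higher genes and -0.40, -0.70, -0.39 and -0.67 in the lower ones. Many were dim. Of the higher genes 51.7% and of the lower 42.9% lay among the dimmest 25% of the genes tested, with a mean log2 signal under 6.33. After normexp correction, which weighs dim spots differently, 52 of the 87 higher genes (59.8%) and 74 of the 170 lower genes (43.5%) were past the limits.

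Among the higher genes well above background on all 8 arrays, those with the greatest differences were of varied function. Unc119, a carrier of lipid-anchored proteins, read 10.31, 8.85, 10.06 and 9.19 in Control and 11.07, 10.45, 10.12 and 10.54 in Ang II (0.94 ± 0.26). Vdac3, a channel of the outer mitochondrial membrane, read 12.23, 12.06, 12.33 and 11.65 in Control and 13.44, 13.34, 12.49 and 12.70 in Ang II (0.92 ± 0.21). Rab35, a GTPase of endosome recycling, read 11.12, 10.91, 11.57 and 10.78 in Control and 12.06, 12.02, 11.58 and 12.01 in Ang II (0.82 ± 0.17). Each was clearly higher in Ang II on slides 1, 2 and 4, by 0.76 or more, and differed by 0.16 or less on slide 3. At 6 h the 3 genes differed by 0.12, 0.03 and -0.01.

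Ccng2, cyclin G2, which is linked to cell cycle arrest, differed by 0.35, 2.12, 0.29 and 0.82 on slides 1 to 4, and its 2 probes gave 0.63 and 1.16. Rapgef5, an exchange factor for Rap GTPases, differed by 0.82 ± 0.22, Habp4 by 0.80 ± 0.20 and Pef1, a calcium-binding protein of vesicle coats, by 0.74 ± 0.26. Lap3, a leucine aminopeptidase, was the exception in having its greatest difference on slide 1 (1.48, beside 0.63, 0.32 and 0.47).

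The lower genes held a group with nearly parallel values, put together after the values were seen. Cx3cr1, the fractalkine receptor, read 7.44, 6.37, 7.05 and 6.53 in Control and 6.67, 4.55, 6.30 and 5.42 in Ang II (-1.11 ± 0.26). Ttf2, a transcription termination factor, read 8.33, 7.05, 7.86 and 7.13 in Control and 7.42, 5.58, 7.19 and 6.15 in Ang II (-1.01 ± 0.24). Rassf2, a Ras-association protein, differed by -0.83, -1.44, -0.56 and -0.93 on slides 1 to 4. Extl3, an enzyme of heparan sulfate synthesis, gave -0.80, -1.43, -0.65 and -0.87 on the same slides, RGD1564799 (now Tmem47) gave -0.60, -1.23, -0.65 and -1.0, and Ptprn2, a phosphatase-like protein of secretory granules, gave -0.67, -1.17, -0.64 and -0.84.

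In all 6 genes Control was higher on slides 1 and 3 than on slides 2 and 4, the Ang II array was lower than Control on every slide, and the Ang II array of slide 2, the brightest before normalization, was the lowest of the 8. None of the 6 was past the limits at 6 h. Cx3cr1 is a gene of microglia. Of 10 microglia and macrophage markers 5, Cx3cr1 among them, were well above background on all 8 arrays, Ptprc, C1qa and C1qc were above it on none, and the summed signal of the list was 243 to 455 in Control and 257 to 358 in Ang II. The part of other cells in Cx3cr1 was not tested.

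A further set of lower genes, grouped after their values were seen, resembled the stress genes only in which slides were lowest and highest. Nfxl1 read 6.46, 9.07, 9.25 and 8.80 in Control and 6.15, 5.97, 8.67 and 6.94 in Ang II (-1.46 ± 0.42), and was also lower past the limits at 6 h (-0.54). Mfsd2, now Mfsd2a, a transporter of lysophospholipids, read 5.62, 7.41, 8.42 and 6.46 in Control and 5.21, 5.19, 7.96 and 4.61 in Ang II (-1.23 ± 0.37). Tap2, a peptide transporter of antigen presentation, read 9.11, 11.08, 11.26 and 10.70 in Control and 8.79, 9.42, 10.62 and 10.03 in Ang II (-0.82 ± 0.21). In each of these, as in Syvn1 and Slc7a1, Control was lowest on slide 1 and Ang II was highest on slide 3. The Ang II array was nonetheless the lower on all 4 slides. On slide 3 Nfxl1, Mfsd2 and Tap2 differed by -0.58, -0.46 and -0.64, beside 0.02 for Ddit3.

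Without slides 2 and 4, 63 of the 257 genes were past the limits (24.5%, beside 2.40% of all genes tested), 16 higher and 47 lower. Differences on slides 1 and 3 helped to choose the 257, so this share is a description. The higher ones included Mcm6 and Cdca8, a subunit of the chromosomal passenger complex, which differed by 0.31, 0.66, 0.43 and 0.56 on slides 1 to 4. RGD1308059 was among them with 0.64, 1.35, 0.77 and 0.94. The lower ones included Igfbp3, which binds insulin-like growth factors (-0.57, -0.51, -0.66 and -0.30), the metalloprotease gene Mmp19 (-0.40, -0.79, -0.37 and -0.29) and Csf2ra, a chain of the GM-CSF receptor (-0.33, -0.70, -0.54 and -0.36). The lower ones also included genes known from other tissues, such as Ins1 of pancreatic islets, Grm2 of neurons, Pou1f1 of the pituitary and the odorant receptor gene Olr472. Apart from Mcm6, the genes of this paragraph were chosen after their values were seen.

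**Figure D4:**
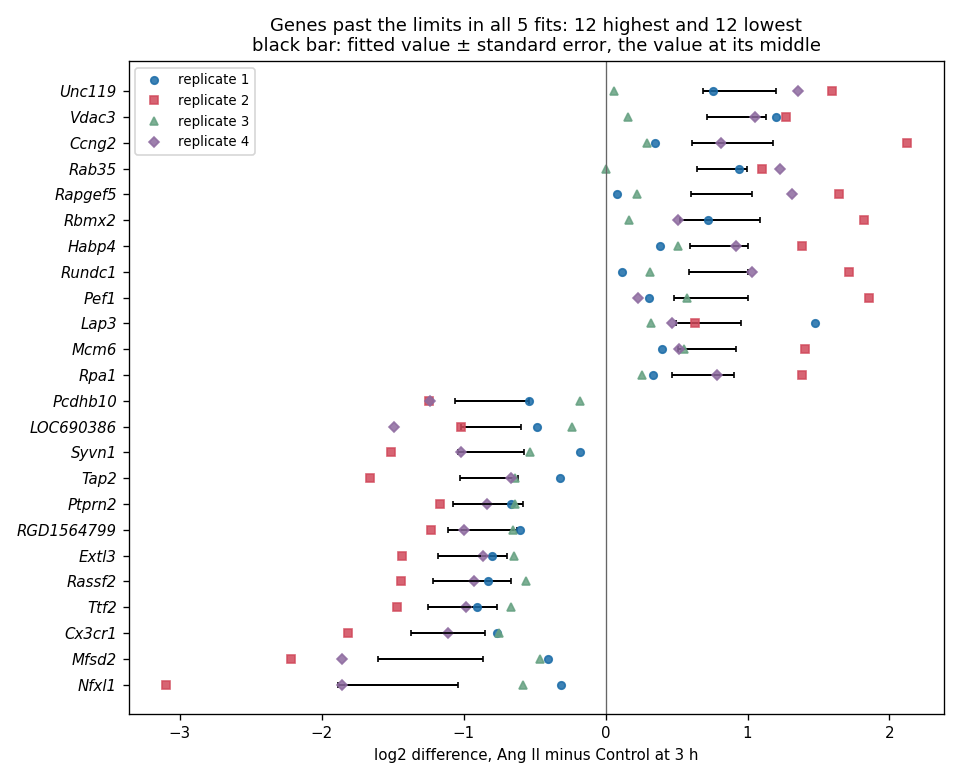
Log2 difference of Ang II minus Control on each slide (points) and in the fit (bars, value ± SE) for the 12 highest and 12 lowest named genes past the limits in all 5 fits. Slide 2 lies farthest from 0 in most genes, and in Cx3cr1, Ttf2, Rassf2, Extl3, RGD1564799 and Ptprn2 all 4 slides lie below -0.5.

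Of 6 tested members of the renin-angiotensin system 2 were lower past the limits (33.3%, beside 5.98% of all genes) and none higher. Agtrap, which binds the AT1 receptor and promotes its internalization (rn4 chr5:165154364-165154423), read 8.57, 9.0, 9.87 and 9.5 in Control and 8.34, 8.36, 9.42 and 8.98 in Ang II. It was lower on every slide, with differences of -0.23 to -0.63 and a fitted difference of -0.46 ± 0.10. It was past the limits in all 5 fits, but not without both slides 2 and 4 (-0.34). Nor were Gna12, Grk6, Map2k4, Lamb1, Tagln, Zyx and Acat2, described below, past the limits without both of those slides. Ace, the converting enzyme, differed by -0.41 ± 0.15 on its only probe above background, and was not past the limits without slide 4.

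Among heterotrimeric G proteins and phospholipase C genes 2 of 24 were higher (8.33%, beside 5% of all genes) and none lower, both past the limits in all 5 fits. Gna12, the G alpha 12 subunit (rn4 chr12:14354680-14354739), read 3.70, 4.29, 3.78 and 3.92 in Control and 4.20, 5.28, 4.29 and 4.77 in Ang II, higher on each slide by 0.49 to 0.99. It was dim, above background on 3 of 4 arrays in either group, and at 6 h it differed by 0.02. Grk6, a receptor kinase, differed by 0.53 ± 0.17.

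Of 29 MAP kinase and Ras-ERK genes 5 were higher past the limits (17.2%, beside 5% of all genes) and none lower, with a median of 0.18. Without slide 2 it was 2 of the 5 and without slide 4 it was 3. Map2k4, the kinase above JNK and p38, was past the limits in all 5 fits, at 5.47, 5.50, 5.53 and 5.68 in Control and 5.53, 6.45, 5.83 and 6.24 in Ang II (0.47 ± 0.14). The Control arrays lay close together, and the Ang II array of slide 1 lay within their range. Map2k5 (0.66 ± 0.23) and Map3k4 (0.60 ± 0.20) were higher on all 4 slides without holding in each fit. Of 20 immediate early transcription factors 3 were higher past the limits (15%), Srf, Csrnp1 and Jund, and none of them was without slide 2 or without slide 4. Srf, the factor that growth signals act on, gave 0.05, 1.27, -0.26 and 1.26 on slides 1 to 4, again a difference of slides 2 and 4. Without these slides Srf differed by -0.10.

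The study named network hubs for Ang II against Control and measured other genes by qPCR. This list was drawn in part from these arrays and so is not independent evidence. Of its 17 tested genes 2 were higher past the limits (11.8%, beside 5% of all genes) and 4 lower (23.5%, beside 5.98%). The higher were Gna12 and Map2k4, and the lower Agtrap, Lamb1, Aqp2 and Vegfa. Lamb1, the laminin beta 1 chain, read 9.86, 11.63, 11.33 and 11.93 in Control and 9.70, 11.10, 10.87 and 11.31 in Ang II (-0.44 ± 0.12), was lower on all 4 slides and past the limits in all 5 fits, and differed by -0.61 at 6 h. Aqp2, a water channel, was dim and differed by -0.44 ± 0.18, and was not past the limits without slide 1, 3 or 4.

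Vegfa, the vascular growth factor, read 6.46, 9.06, 11.001 and 8.95 in Control and 6.49, 7.91, 10.45 and 8.26 in Ang II as the mean of 4 probes (-0.59 ± 0.25). It differed by 0.03 on slide 1 and was not past the limits when slide 2, 3 or 4 was left out. Of the others, none of them past the limits, log2 differences are given for Fkbp4 (0.19), Cap1 (0.40), Gnb2 (0.38), Mprip (0.26), Bcar1 (0.06), Hbegf (0.06), Lamc1 (0.01), Ctgf (-0.01) and Prkca (-0.15). The signs of Bcar1, Hbegf, Lamc1 and Ctgf turned under other settings or without a slide. The paper lists Mprip and Lamc1 as hubs added by co-expression, not as changed genes. Its qPCR genes were ones changed by Ang II or by an antagonist, not only in this comparison.

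Lists of the cell's frame and surroundings gave both directions. On the list of SRF-dependent contractile and adhesion genes 4 of 27 were higher (14.8%, beside 5% of all genes) and 1 lower (3.70%, beside 5.98%). Tagln, an actin-bundling protein, was higher by 0.10, 0.56, 0.55 and 0.32 on slides 1 to 4. Zyx, zyxin of focal adhesions, gave -0.41, -0.68, -0.14 and -0.55 on the same slides. Both were past the limits in all 5 fits, but the 2 probes of Zyx disagreed in size, with -0.60 and -0.29. Tpm1 and Tmsb4x differed by 0.35 and 0.28. Tpm3 differed by 0.76, with 2.33 on slide 2 and 0.38 or less on the others. Of 31 extracellular matrix and protease genes 4 were lower (12.9%, beside 5.98%) and 1 higher (3.23%, beside 5%), with a median of -0.12. Besides Lamb1 the lower were Lama5 (-0.36), Mmp13 (-0.40) and Col1a2 (-0.41). Lama5 was not past the limits without slide 3 or 4. Mmp13 was 0.06 on slide 1 and not past them without slide 2 or 4. Col1a2 was 0.12 on slide 4 and not past them without slide 1, 2 or 3. The higher gene was Plaur, the urokinase receptor (0.70 ± 0.25, but -0.26 on slide 3).

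Of 35 cholesterol and fatty acid synthesis genes 4 were higher (11.4%, beside 5% of all genes) and 1 lower (2.86%, beside 5.98%). Acat2, which makes acetoacetyl-CoA, was past the limits in all 5 fits, at 11.24, 12.17, 10.83 and 12.29 in Control and 11.51, 13.00, 11.08 and 12.90 in Ang II (0.49 ± 0.15). Hmgcs1 and Stard4 differed by 0.43 and 0.46 and the squalene synthase gene Fdft1 by -0.39. Of 20 hypoxia and VEGF genes 2 were higher (10%, beside 5% of all genes) and 2 lower (10%, beside 5.98%). The higher were Adm and Pdk1, and the lower Vegfa and the glucose transporter gene Slc2a1 (-0.37 ± 0.11). Adm, adrenomedullin, gave 0.15, 1.16, -0.39 and 1.22 on slides 1 to 4.

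Few housekeeping genes were past the limits. Of 66 genes of oxidative phosphorylation none was higher and 2 were lower (3.03%, beside 5.98% of all genes), Cox4i1 and Uqcrq, and the list's median was 0.04 here but -0.01 with scaling to the 75th percentile and -0.04 after quantile normalization. Of 74 cytosolic ribosomal protein genes none was higher and 2 were lower (2.70%), Rplp1 and Rpl13a, with a median of -0.09. Rpl13a had no value on the Control arrays of slides 3 and 4, where its spots were set aside. None of 8 NADPH oxidase genes was past the limits by limma, at the unadjusted p that the limits use, and the list's median was -0.21. In limma on the 8 arrays alone, and with scaling to the 75th percentile, 2 of the 8 were lower past the limits.

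The difference at 3 h was set beside that at 6 h, the only comparison made on separate arrays. Over 13617 genes tested at both times, none differed between the times at an adjusted p under 0.05 (lowest limma adjusted p 0.669, with 976 genes at an unadjusted p under 0.05). Of the 87 higher genes past the limits in all 5 fits at 3 h, 37 were also higher past the limits at 6 h (42.5%, beside 5.9% of all genes) and 0 were lower. Of the 170 lower genes 18 were also lower (10.6%, beside 4.1%) and 1 was higher.

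The genes in common included 6 of replication: Mcm6 differed by 0.57 at 6 h, Mcm2 by 0.49, Rpa1 by 0.49, Cdt1 by 0.52, Gins2 by 0.62 and Pola2 by 0.69. Yet the slides were again unequal. At 6 h the replication list had medians of 0.04, 0.68, 0.03 and 0.58 on slides 1 to 4, and Mcm6 was 10.05, 8.50, 10.11 and 8.89 in Control and 10.39, 9.55, 10.10 and 9.80 in Ang II. The Control arrays of slides 2 and 4 at 6 h, in which Ddit3 was highest, were also those in which Mcm6 was lowest. Bag3 (0.06), Vdac3 (0.03), Rab35 (-0.01), Cx3cr1 (0.05) and Ttf2 (-0.12) were not past the limits at 6 h.

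**Figure D5:**
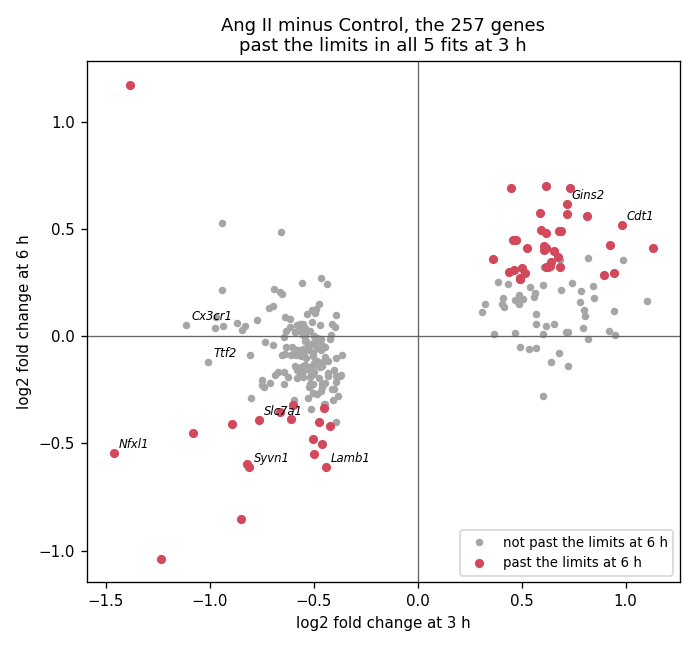
Log2 fold change of Ang II minus Control at 6 h (vertical axis) against 3 h (horizontal axis) for the 257 genes past the limits in all 5 fits at 3 h, 1 point a gene, red where the gene was also past the limits at 6 h. Of the higher genes 79 of 87 lie above 0 at 6 h and of the lower genes 122 of 170 lie below it, and most lower genes sit close to 0 at 6 h.

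Beside the same Control arrays the arms with an antagonist gave these values. Agtrap differed from Control by -0.32 in Ang II+Los and by -0.41 in Ang II+PD123319, beside -0.46 in Ang II alone. Mcm6 differed by 0.18 and 0.66, beside 0.72, and its Ang II+Los array of slide 2, at 7.38, lay below Control. Bag3 differed by 0.55 and 0.55, beside 0.66, and Ddit3 by -2.33 and -2.23, beside -2.45. These comparisons share their 4 Control arrays, so a Control array that stood apart enters all of them alike.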

How the data were processed

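RNA of C6 cells was hybridized to 1-colour (Cy3) rat arrays. Per the file headers and labels, the authors' scanner software, Agilent Feature Extraction 9.5.3.1, produced the processed intensity of each spot (background-subtracted, probes placed on rn4), and the deposited series table holds log2 values. From the deposited intensities, log2 signal was computed (spots below their error raised to it, outlier spots dropped, 42877 spots for transcripts), followed by cyclic loess over the 16 arrays of 1 time (limma 3.58.1, R 4.3.3). Probes had to exceed background clearly in every array of some group. A gene was the mean of its probes, each set to the gene's mean level first, so that a dropped spot does not shift it. The fit was limma over 16 arrays with the slide as a block, since slides carried all arms: deviations of Control and Ang II arrays from their group means correlated within slides (r of 0.88, 0.34, 0.82 and 0.50 over genes). Slides 1 and 2 were scan 1, slides 3 and 4 scan 2. The number of arrays limits the precision. At 6 h the arrays were scanned with another setting for dim spots, and each time was normalized on its own.

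Named genes were the 12 highest and lowest past the limits in all 5 fits and above background on all 8 arrays, up to 4 members a list and direction by p, genes named by the study, the receptors, and 6 genes with 1 slide apart. Genes and lists were chosen with earlier results of these data known. Some genes that the rule names are not reported here. Alternatives were other normalizations, background corrections, filters, the deposited log2 values, t-tests and leaving out slides. Promoters came from RefSeq (GRCr8).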

Additional observations from a re-analysis of the deposited data

Results flagged for a closer look

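Among the 101 named genes, 25 of 202 groups of 4 arrays held an array far from the other 3 (the gap to the nearest taking up most of the group's range, by Dixon's limit), where chance gives about 1 in 20 groups. The excess cannot be read as such. It is only in part due to the 6 genes chosen because 1 slide stood apart. Of these genes 4, Tyw1, Pcdh20, Gucy1a3 and Srcap, supply 5 of the 25. The groups also share the same arrays, so they are not independent, and the Control array of slide 1 recurs in the stress genes. In 13 of the 25 the array was a Control array and in 12 an Ang II array. No explanation was tested.

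Slide 1 of Control stood below the others in the stress genes, with a log2 signal of 10.25 for Ddit3, 6.62 for Trib3, 9.75 for Herpud1, 9.83 for Sdf2l1, 8.51 for Nupr1 and 8.97 for Cars, and the Ang II array of slide 1 did so for Sdf2l1 with 9.89. Slide 3 of Ang II stood above the others for Ddit3 with 15.05 and Slc7a1 with 8.27, and below them for Rab35 with 11.58, Tmsb4x with 13.58, Tuba1a with 12.14 and Gnb2 with 11.19. Slide 1 stood above the others for Cryab with 14.29 in Control and 14.52 in Ang II, for Rapgef5 with 5.92 and Ace with 6.16 in Control, and for Fdft1 with 10.76 in Ang II, and below them for Nfxl1 with 6.46 and Gucy1a3 with 6.12 in Control. Slide 2 stood apart in Control for Tyw1 with 3.67 and Srcap with 4.01, and in Ang II for Pcdh20 with 11.24, Gucy1a3 with 10.43 and Map2k5 with 7.62.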

How the results depend on the processing

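The slide as a block decided the number of genes past the limits. Without this pairing it was 351 (120 higher, 231 lower), with 17 genes in all 5 fits and 22 members of the lists. The methods' t-test gave 658 (279 higher, 379 lower, 54 list members) when paired and 209 (61 higher, 148 lower, 8 list members) when unpaired. Normexp correction gave 876 (364 lower) and 120 in all 5 fits, the deposited log2 values 997 (452 higher), 167 in all 5 fits and 109 list members. Scaling to the 75th percentile gave 367 higher and 1233 lower, no filter on dim probes 1041 higher, and the 8 arrays alone 422 in all 5 fits. Leaving out 1 slide gave 751 to 1772 genes (326 to 768 higher, 408 to 1004 lower) and 65 to 178 list members. Leaving out slides 2 and 4 together, an alternative chosen after seeing the data, gave 327 (154 higher, 173 lower), 63 of the genes past the limits in all 5 fits and 10 list members. The count of genes that differed between 3 h and 6 h was 0 in every setting run. The causes were not tested.

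Of 101 named genes, some turned sign, in 25 values in all. With 1 slide left out, Tyw1 ranged from -0.33 to 1.71, RGD1564195 from -0.22 to 1.40, Gucy1a3 from -0.0372 to 1.34, Srcap from -0.0053 to 1.42, Lamc1 from -0.12 to 0.14, Bcar1 from -0.0236 to 0.15, Hbegf from -0.0085 to 0.14 and Ctgf from -0.17 to 0.13. Without both slides 2 and 4 the turned values were Tyw1 at -0.24, Lhfp at -0.0233, Gucy1a3 at -0.0794, Srcap at -0.18, Cars at 0.025, Adm at -0.12, Srf at -0.10, Csrnp1 at -0.0543, Lamc1 at -0.22 and Hbegf at -0.0575. Lamc1 was -0.043 with the 75th percentile, -0.0277 with quantile normalization, -0.023 on its first probe and -0.0183 in the deposited values, and Ctgf was 0.0312 with normexp. Of 36 named genes past the limits in all 5 fits none turned sign. Their rule asks for the same direction on all 4 slides, so leaving out slides could not turn it. In 113 of their values they were no longer past the limits, and in 529 they were the same. Signal over background limits the dim genes.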
